A study of Mus musculus with 8 samples.

Results

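Messenger RNA was quantified for 9 early response genes, Egr1, Egr2, Egr3, Nr4a1, Nr4a3, Ier2, Ier3, Ier5 and Srf, in pre-germinal-center (pre-GC) B cells from mouse lymph nodes. The genes were chosen by symbol as early genes of the antigen receptor and of the serum response, and all 9 were found among the 24259 gene symbols counted. The cells were sorted as NP-binding, IgD-low and B220-positive 3 days after immunization of mice of the C57BL/6 strain with the hapten NP coupled to ovalbumin (NP-OVA), given with LPS in alum. All recipients were Sap-/- mice given OT-II T cells, which recognize ovalbumin, before immunization. SAP is an adaptor protein that T cells need in order to support germinal centers, so help came chiefly from the transferred cells.

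In the HET group (4 libraries) the donor T cells had the genotype CD4-CrexBcl6fl/+, with 1 Bcl6 allele floxed, and in the WT group (4 libraries) they had CD4-Cre alone. Only T cells were transferred from these donors, so the sequenced B cells were those of the recipients and carried no deletion. The group names could therefore not be checked on a deleted gene. The cells of the recipients of a group were pooled before sorting into 4 repeats of about 200 cells. The repeats are therefore not separate animals, the p-values measure only the spread between repeated sorts of 1 pool. Pool and group cannot be told apart. Libraries held 6652386 to 12559189 counts, and the group means did not differ by more than their spread (two-sided exact permutation p = 0.429, smallest possible 0.0286). The question asked of these genes was whether B cells carried less early gene RNA when the T cells that helped them had 1 intact copy of Bcl6.

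Early response genes are transcribed within minutes of a stimulus by factors already present in the cell, and their RNAs are short-lived. In B cells, engagement of the antigen receptor activates the ERK kinases, which act through serum response factor (SRF) and its ETS partners, and raises calcium, which acts through calcineurin, NFAT and MEF2. The EGR zinc finger proteins and the NR4A orphan nuclear receptors are transcription factors made in this first wave. The IER genes encode short proteins of the same wave. In lymphocytes NR4A1 (Nur77) is widely used as a reporter of recent antigen receptor signaling.

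Promoter sequences show which of these genes carry SRF letters near the start site. Windows from 250 bases before to 50 bases after a transcription start (RefSeq, GRCm38.p6) were matched for 6 of the 9 genes, Egr2, Nr4a1, Nr4a3, Ier3, Ier5 and Srf, and not for Egr1, Egr3 and Ier2. The CArG box, the element bound by SRF, was found on either strand in the windows of Egr2 and Srf, and in 1.63% of all 32851 windows. The ETS letters CCGGAA occurred in those of Egr2, Nr4a1 and Srf (14.9% of all windows), and the EGR letters GCGNGGGCG in those of Nr4a1 and Srf (5.55%). The short CREB letters TGACG occurred in those of Egr2, Nr4a1, Nr4a3 and Srf (20.8%). The full CREB letters TGACGTCA (1.79% of all windows) and the NR4A letters AAAGGTCA (1.51%) were in none of the 6, and the windows of Ier3 and Ier5 held none of the motifs searched. TGACGTCA contains TGACG, and the other motifs do not contain one another. A gene was counted when any of its windows held a motif, and Egr2 had several windows. The shares over all windows are per window, so the 2 are not like measures.

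The upstream sequences of 4 genes are shown because they differ in these elements, and only bases outside the annotated exons of the gene are given. In the lines for Srf and Egr2 the capitals mark CArG boxes, of which Srf has a pair at -82 and -62 from its start site and the Egr2 window has 1 at -72. A further Egr2 window, for an upstream start site, also held a CArG box at -72. The Egr2 window at the annotated gene start, with upstream bases chr10:67535249-67535474, held no CArG box. In the lines for Nr4a1 and Nr4a3 the capitals mark TGACG on either strand, and in Nr4a1 also the EGR letters at -60 on the reverse strand.
Srf, chr17:46556176-46556412, minus strand: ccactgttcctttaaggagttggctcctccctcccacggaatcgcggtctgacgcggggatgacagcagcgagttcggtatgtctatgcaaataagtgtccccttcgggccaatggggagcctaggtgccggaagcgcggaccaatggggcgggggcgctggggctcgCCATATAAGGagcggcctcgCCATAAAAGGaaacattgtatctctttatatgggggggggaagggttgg
Egr2, chr10:67537619-67537868, plus strand: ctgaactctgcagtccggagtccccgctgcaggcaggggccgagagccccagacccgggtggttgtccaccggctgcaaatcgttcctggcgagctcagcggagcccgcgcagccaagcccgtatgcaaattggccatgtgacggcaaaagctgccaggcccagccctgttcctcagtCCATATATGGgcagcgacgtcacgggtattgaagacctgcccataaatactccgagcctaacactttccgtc
Nr4a1, chr15:101266596-101266845, plus strand: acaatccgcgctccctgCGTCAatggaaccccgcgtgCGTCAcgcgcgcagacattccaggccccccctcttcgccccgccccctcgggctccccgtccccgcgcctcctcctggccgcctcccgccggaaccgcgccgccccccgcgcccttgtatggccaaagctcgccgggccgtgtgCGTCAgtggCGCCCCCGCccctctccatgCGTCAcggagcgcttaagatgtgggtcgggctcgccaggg
Nr4a3, chr4:48045055-48045152, plus strand: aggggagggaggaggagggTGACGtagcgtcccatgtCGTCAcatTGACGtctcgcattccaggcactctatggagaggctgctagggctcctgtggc
These matches describe letters in a window and not bound sites.

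Next, levels were compared between the genes on a scale that divides by gene length (TPM, the length-scaled unit of the deposited table). Ier2 was by far the most abundant, at 284 ± 72.1 TPM in HET and 330 ± 76.5 TPM in WT (SD, n = 4 in each group here and below). Ier5 followed at 94.0 ± 31.7 TPM in HET and 103 ± 14.4 TPM in WT, and its range did not overlap with that of Ier2 or of Egr1 in either group. Egr1 came next at 33.5 ± 13.0 TPM in HET and 37.1 ± 11.0 TPM in WT. Egr1, Nr4a1, Egr3 and Egr2 formed a middle tier from 15.9 to 37.1 TPM in which the ranges of neighbours overlapped, and Egr3 and Nr4a1 exchanged places between the groups. Srf was lower, at 8.07 ± 3.67 TPM in HET and 8.82 ± 1.26 TPM in WT, with no overlap with Ier3 below it. Its range overlapped with that of Egr2 above it in HET and not in WT. Ier3 and Nr4a3 were the scarcest, at 0.182 to 1.46 TPM on average, and their ranges overlapped.

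The comparison of HET with WT showed no called difference for any of the 9 genes. Of the 8 genes with enough counts to be tested, 0 were called by edgeR (quasi-likelihood test, adjusted p under 0.05), where 0.0235% of all 12744 genes tested were called. At an unadjusted p under 0.05 there was 1 of the 8, Nr4a3, beside 7.22% of all genes. DESeq2 also called 0 at an adjusted p under 0.05, where it called 0.687% of all genes, and gave Nr4a3 alone an unadjusted p under 0.05, and limma-voom gave 0 by either measure. Levels of the HET and WT libraries overlapped for all 9 genes, and 4.61% of all genes tested had groups that did not overlap (2.62% lower and 1.99% higher in HET). The fitted fold change was below 0 for 7 of the 8 and the median log2 fold change was -0.09, beside 50.1% of all genes below 0 and a median of -0.0014. That count rested on single libraries: it was 3 of 8 without HET replicate 4 and 4 of 8 without WT replicate 4.

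**Figure D1:**
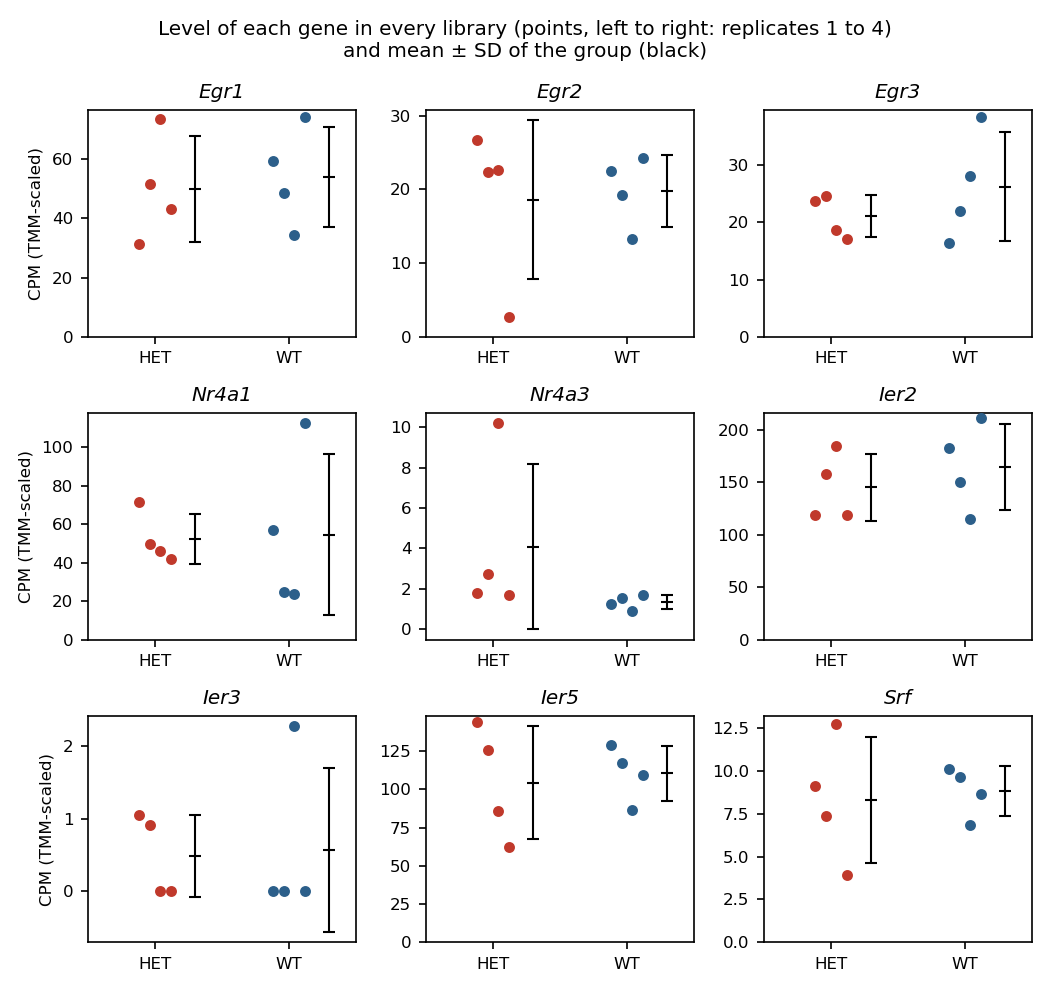
Level of each of the 9 genes (TMM-scaled CPM, linear axis) in the HET (red) and WT (blue) libraries, 1 point per library, with the group mean and SD in black. The groups overlap for every gene, Egr2 is at 2.73 CPM in HET replicate 4, and Nr4a3 is at 10.2 CPM in HET replicate 3.

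Egr1, Egr2 and Egr3 encode closely related zinc finger activators that bind the same GC-rich element. On the CPM scale (counts relative to the TMM-scaled library total, used for comparing libraries and not genes), Egr1 (chromosome 18, 34859823 to 34864984 on GRCm38) stood at 31.2, 51.6, 73.7 and 43.2 CPM in HET replicates 1 to 4. It stood at 59.3, 48.5, 34.3 and 74.4 CPM in WT replicates 1 to 4. The highest library of each group was nearly the same, and the lowest too. Egr1 had a log2 fold change of -0.12 (95% interval -0.70 to 0.46, edgeR adjusted p = 0.958).

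Egr2 (chromosome 10, 67535475 to 67542188), which with Egr3 restrains lymphocyte activation, was far lower in HET replicate 4 than in the other 7 libraries, among which WT replicate 3 was the lowest. It stood at 26.8, 22.4, 22.6 and 2.73 CPM in HET and at 22.5, 19.2, 13.3 and 24.3 CPM in WT. HET replicate 4 had 18 counts of Egr2, which gives an exact Poisson 95% interval of 1.62 to 4.31 CPM (counting error only), below every other library. Egr2 had a log2 fold change of -0.08 (95% interval -1.14 to 0.97, edgeR adjusted p = 0.981), and without HET replicate 4 it was 0.28.

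Egr3 (chromosome 14, 70077203 to 70082614) stood at 23.8, 24.6, 18.7 and 17.1 CPM in HET and at 16.3, 22.0, 28.1 and 38.5 CPM in WT. The WT libraries enclosed all of the HET libraries. The log2 fold change of Egr3 was -0.31 (95% interval -0.92 to 0.29, edgeR adjusted p = 0.861), the largest fall among the 8 genes in this fit, and it was -0.07 without WT replicate 4. Egr4, the remaining family member, was too scarce to be tested, with counts in 1 of the 8 libraries only (2.09 CPM in WT replicate 4).

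The NR4A receptors behaved unevenly between libraries. Nr4a1 (chromosome 15, 101254269 to 101274795) stood at 71.6, 49.9, 45.8 and 42.2 CPM in HET. In WT it stood at 57.0, 24.6, 23.9 and 113 CPM, so the WT group held both the highest and the lowest libraries and spanned 4.73-fold. The coefficient of variation in WT was 76.6%, against 4.35% expected from the counting of reads alone. The log2 fold change of Nr4a1 was -0.06 (95% interval -1.17 to 1.05, edgeR adjusted p = 0.986). This sign turned to 0.58 without WT replicate 4.

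Nr4a3 (chromosome 4, 48045153 to 48086447) was present at 1.77, 2.72, 10.2 and 1.67 CPM in HET and at 1.24, 1.52, 0.883 and 1.67 CPM in WT, from 7 to 68 counts per library. The mean of HET was raised by HET replicate 3, and HET replicate 4 lay within the WT range. Its log2 fold change was 1.60 (95% interval 0.02 to 3.18), with an unadjusted p of 0.0470 and an adjusted p of 0.678 in edgeR. Without HET replicate 3 it was 0.62 (adjusted p = 0.961 in edgeR), and leaving out each library in turn gave adjusted p of 0.548 to 0.961. The log2 fold change of Nr4a3 was 1.22 in limma-voom, 0.90 on log2(TPM + 0.1) and 0.33 on log2(TPM + 1), with adjusted p of 0.703 to 0.753 in limma. Nr4a2, the other family member, was not tested and reached at most 1.80 CPM, also in HET replicate 3.

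The IER genes included the most abundant and nearly the scarcest of the set. Ier2 (chromosome 8, 84661331 to 84662852), whose small product acts in the nucleus, stood at 119, 158, 185 and 119 CPM in HET and at 182, 150, 115 and 211 CPM in WT. Its log2 fold change of -0.18 had the narrowest interval of the set (95% interval -0.59 to 0.22, edgeR adjusted p = 0.880). The groups overlapped over most of their range.

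Ier5 (chromosome 1, 155096361 to 155099636), also a target of the heat shock factor HSF1, stood at 144, 126, 85.8 and 62.0 CPM in HET and at 129, 117, 86.3 and 109 CPM in WT. HET spread on both sides of WT. For Ier5 the log2 fold change was -0.08 (95% interval -0.56 to 0.40, edgeR adjusted p = 0.967).

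Ier3 (chromosome 17, 35821684 to 35822923), which promotes survival downstream of NF-kB, had 13 and 7 counts in HET replicates 1 and 2, 18 in WT replicate 3 and 0 in the other 5 libraries. It was left out of the test by the filter on low counts and no fold change is given. A count of 0 allows up to 3 counts, or 0.285 to 0.455 CPM in these 5 libraries, so a level under this was not detectable. Ier5l, a relative of Ier5, was also too scarce to be tested and reached 4.04 CPM in WT replicate 3.

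Srf (chromosome 17, 46548329 to 46556175) encodes the factor that binds the CArG boxes shown above, including the pair upstream of its own start. It stood at 9.08, 7.38, 12.7 and 3.94 CPM in HET and at 10.1, 9.65, 6.82 and 8.66 CPM in WT. HET again lay on both sides of WT. The log2 fold change was -0.09 (95% interval -0.94 to 0.77, edgeR adjusted p = 0.978). The annotated Srf gene overlaps the noncoding gene Gm26904 on the other strand, which is not among the counted symbols, and the strand setting of the counting was not given in the sources used here.

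The intervals bound the size of a fall that these libraries leave possible. The lower bound lay above -1, a halving, for Egr1, Egr3, Ier2, Ier5, Srf and Nr4a3, and below -1 for Egr2 and Nr4a1. For Egr1, Ier2 and Ier5 it lay above -1 whichever of the 8 libraries was left out, while Egr3, Srf and Nr4a3 did not keep it in all of them. A p that misses the threshold does not show that levels were equal, and smaller differences were not resolved with 4 repeats.

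**Figure D2:**
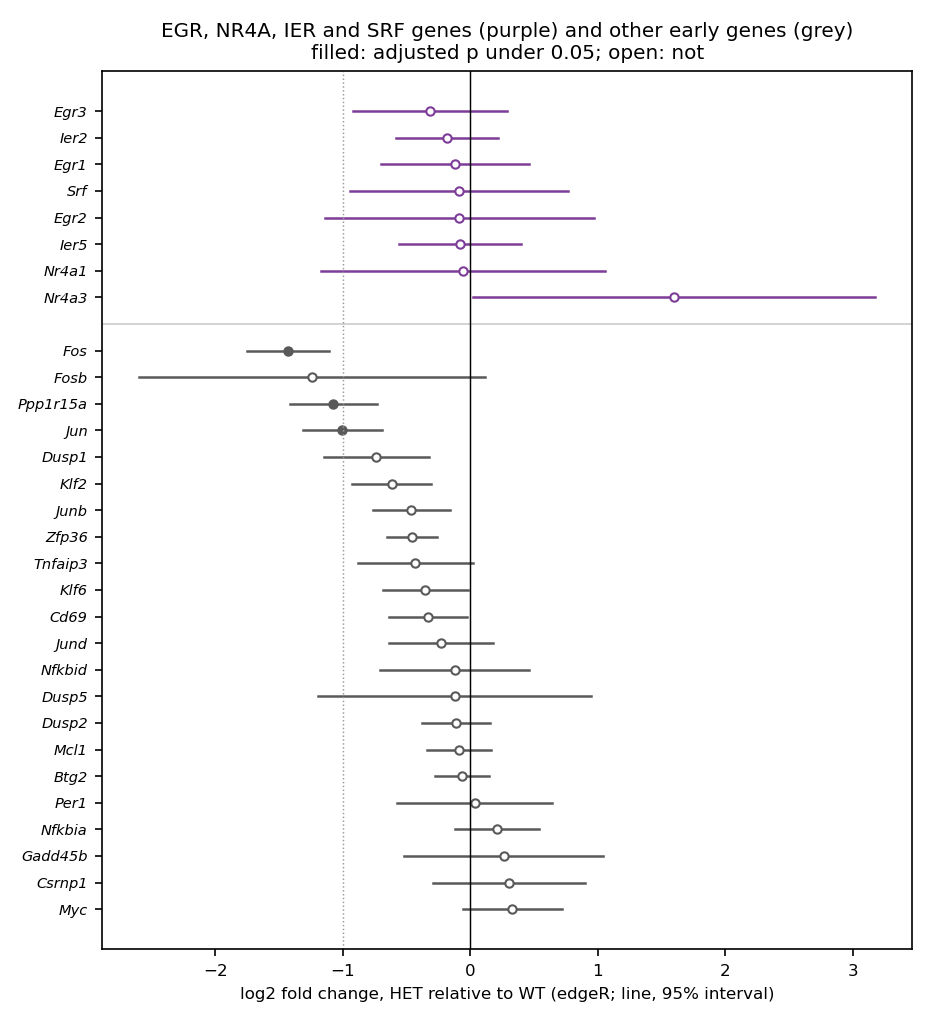
Log2 fold change of HET relative to WT (points) with 95% intervals (lines) from edgeR for the 8 tested EGR, NR4A, IER and SRF genes (purple) and 22 other early genes (grey), with filled points for an adjusted p under 0.05. The dotted line marks a halving, and only Fos, Jun and Ppp1r15a are filled.

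These values stand beside those of other early genes measured in the same libraries. Of a list of 25 such genes, 22 were tested, 17 had a fold change below 0 and the median log2 fold change was -0.28. In edgeR 3 passed an adjusted p of 0.05, Fos, Jun and Ppp1r15a, all lower in HET. Fos and Jun encode the classic partners of AP-1, and Ppp1r15a (GADD34) a phosphatase subunit that ends the integrated stress response. Fos was called whichever library was left out (edgeR adjusted p from 0.0041 to 0.039). Jun was called only without WT replicate 1 (edgeR adjusted p = 0.031, and 0.056 to 0.17 without each other library) and Ppp1r15a in none of these 8 fits (0.056 to 0.20). On the log2(TPM + 0.1) and log2(TPM + 1) scales limma called none of the 3, with adjusted p of at least 0.138. At an unadjusted p under 0.05 there were 9 lower and 0 higher, where 3.88% of all genes tested were lower and 3.34% higher. Among those that did not pass after adjustment, log2 fold changes were -0.46 for Zfp36, an mRNA decay factor, -0.74 for Dusp1, a MAP kinase phosphatase, and -0.62 for Klf2, a quiescence factor (edgeR adjusted p = 0.196, 0.328 and 0.234). The list was compiled with earlier results of these data known, and it is no independent evidence of a direction.

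The intervals of the named genes and of Fos were set side by side. The log2 fold change of Fos was -1.43 (95% interval -1.75 to -1.11), and the lower bound of each of the 8 genes lay above -1.43. The intervals of Egr2 and Nr4a1 reached below -1.11 and so overlapped that of Fos. With a library left out, the bound lay above the refitted Fos value for 6 to 8 genes, with 6 without HET replicate 1 and 7 without WT replicate 1. Without a filter it did so for 7 of 9 genes, and with the replicate block for 7 of 8. The share of all genes tested with a bound above the Fos value was not computed, so these counts are not read as particular to the 8 genes. Within a library, the log2 ratio of Ier2 to Fos counts does not depend on how libraries are scaled. It ran from 0.40 to 0.74 in HET and from -0.97 to -0.12 in WT. The log2 ratio of Egr1 to Fos ran from -1.29 to -0.62 in HET and from -2.72 to -1.63 in WT. The mean ratio to Fos was higher in HET for all 8 genes, and 5 of them (Egr1, Nr4a3, Ier2, Ier5 and Srf) had groups that did not overlap. Over all genes tested other than Fos, 98.2% had a higher mean ratio in HET and 70% did not overlap in that direction, so these counts are no result about the 8 genes. Fos has the lowest p of all genes in this contrast, so these ratios describe the libraries and no test of them is given.

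Partners and upstream routes of these genes held no called gene. Of 7 tested partners and corepressors of SRF and EGR proteins, 0 passed after adjustment. Mrtfb, an actin-responsive SRF partner, had a log2 fold change of -0.78 (unadjusted p = 0.0339, adjusted p = 0.629 in edgeR), and the ETS partner Elk1 and the SRF partner Mrtfa had 0.23 and -0.08. The EGR corepressors Nab1 and Nab2 had log2 fold changes of -0.06 and -0.02.

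Of 19 genes on the route from the antigen receptor to ERK, all tested, 0 passed after adjustment in edgeR and 5 had an unadjusted p under 0.05, 4 lower and 1 higher, beside 7.22% of all genes tested. The receptor chain Cd79b had a log2 fold change of -0.24 (adjusted p = 0.354 in edgeR), the protein kinase C gene Prkcb -0.44 (0.492) and the small GTPase gene Hras 1.21 (0.576), and the median of the list was -0.04. Of 12 calcium, calcineurin and NFAT genes, 0 passed after adjustment in edgeR and 1 had an unadjusted p under 0.05, the calcium release channel gene Itpr3 with a log2 fold change of -0.47. Itpr2 and the calcium sensor gene Stim2 had -0.35 and -0.53, and the median of the list was -0.12. Of 13 tested cytoskeletal genes that SRF regulates with MRTF partners, 0 passed after adjustment in edgeR and 1 had an unadjusted p under 0.05. This was the actin-binding gene Tagln2 with a log2 fold change of 0.40 (adjusted p = 0.262), while Flna and Tpm1 had -0.25 and -0.34 and the median was -0.05.

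**Figure D3:**
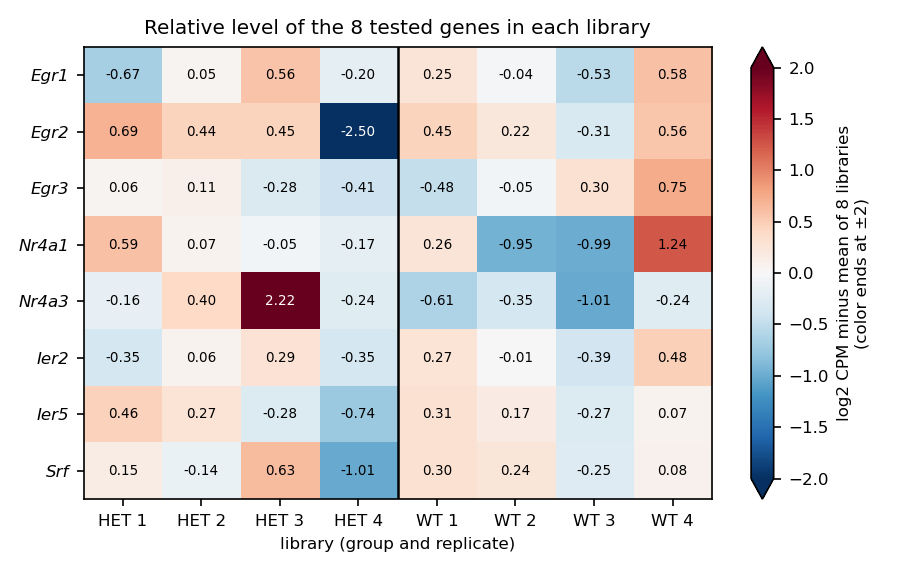
Log2 CPM of each of the 8 tested genes in each library minus its mean over the 8 libraries, with HET to the left of the black line and WT to the right. WT replicate 4 is above the mean for 7 genes, and WT replicate 3 is below it for 7.

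The genes moved with single libraries more than with the groups. WT replicate 4 was the highest WT library for 6 of the 8 tested genes, Egr1, Egr2, Egr3, Nr4a1, Nr4a3 and Ier2. WT replicate 3 was the lowest WT library for 7, all but Egr3. HET replicate 4 was the lowest HET library for 6, Egr2, Egr3, Nr4a1, Nr4a3, Ier5 and Srf. HET replicate 3 was the highest HET library for 4, Egr1, Nr4a3, Ier2 and Srf. The share of all genes tested with the same highest or lowest library was not computed. These counts are therefore not read as particular to the 8 genes. The summed level of all 9 genes was 292 to 454 CPM in HET and 311 to 581 CPM in WT. Coefficients of variation ran from 17.5% (Egr3) to 100.2% (Nr4a3) in HET and from 16.3% (Ier5) to 76.6% (Nr4a1) in WT over the tested genes. The counting of reads alone would give 2.51% to 18.1% for these genes, apart from Nr4a3 in WT, where the spread of 26.1% did not exceed the 28.0% of counting. Libraries were amplified without molecular identifiers, so these expected values take reads, and not captured RNA molecules, as the units counted.

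The genes whose profile over the 8 libraries was most like the mean standardised profile of the 8 tested genes were Ormdl2, Arhgap30, Syf2, Gimap1os and Psenen. Pearson's r ranged from 0.894 to 0.936 and Spearman's rho from 0.786 to 0.976 over the 8 libraries. These are the highest of 4936 candidates whose log2 CPM averaged 5 or more, and are given as a description. Without HET replicate 4 and WT replicate 3, the libraries farthest from the median profile, r was 0.730 to 0.902. None of the 5 was called between the groups in edgeR (adjusted p from 0.896 to 0.996, unadjusted p from 0.394 to 0.968).

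RNA of other cells was measured beside these values, because in bulk libraries fewer cells of a type and less RNA per cell cannot be told apart. All 10 B cell markers were present, and their summed level was 23125 to 24245 CPM in HET and 26347 to 29202 CPM in WT. Of these, 10 of 10 had a fold change below 0, beside 50.1% of all genes tested. An unadjusted p under 0.05 was reached by 9, beside 3.88% of all genes that were lower, and 0 passed after adjustment in edgeR (the lowest adjusted p was 0.077, for Cd74). Of 11 tested T cell markers, 11 had a fold change above 0 and 0 had an unadjusted p under 0.05, with sums over the list of 271 to 474 CPM in HET and 177 to 383 CPM in WT, while Cd4 reached at most 7 counts. Myeloid markers summed to 63.5 to 209 CPM in HET and 35.7 to 447 CPM in WT (8 of 12 tested, with 1 on each side at an unadjusted p under 0.05). Antibody-secreting cell markers summed to 294 to 2100 CPM in HET, highest in HET replicate 1, and to 241 to 526 CPM in WT (6 of 7 tested, 0 at an unadjusted p under 0.05). HET replicate 3, with the most Nr4a3, had sums of 366 CPM for T cell, 63.5 CPM for myeloid and 295 CPM for antibody-secreting cell markers. None of these sums was the highest. It was the highest library for Cd3d (46.4 CPM), Bcl11b (9.29 CPM) and Flt3 (26.1 CPM), and for no other marker of these lists. The part of other cells in its Nr4a3 level was not tested.

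Heat shock genes were also measured. Their sums overlapped, at 4635 to 6366 CPM in HET and 5136 to 5977 CPM in WT. Of 10 tested, 3 that were lower and 1 that was higher reached an unadjusted p under 0.05 in edgeR. This stood beside 7.22% of all genes tested in either direction, and 0 were called after adjustment in edgeR. The largest terms of these sums were Hsp90ab1 (mean 2183 CPM in HET and 2052 CPM in WT) and Hspa8 (1850 and 1698 CPM). Hspa1a, which encodes an inducible HSP70, was at 13.0 ± 11.0 CPM in HET and 135 ± 44.5 CPM in WT (SD, n = 4, adjusted p = 0.414 in edgeR). The other 2 lower genes were Hspa1b (1.01 ± 0.927 and 9.60 ± 3.46 CPM, edgeR adjusted p = 0.233) and Dnajb1 (104 ± 13.0 and 143 ± 4.81 CPM, 0.328). Libraries of the groups did not overlap for these 3 lower genes, beside 4.61% of all genes tested, and overlapped for the other tested heat shock genes. Hspa1a ran from 0.910 to 27.6 CPM in HET and from 87.6 to 180 CPM in WT. The higher gene was Hspd1 (322 ± 45.8 and 234 ± 53.5 CPM, edgeR adjusted p = 0.551). The part of these transcripts in the levels of the early genes was not tested.

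**Figure D4:**
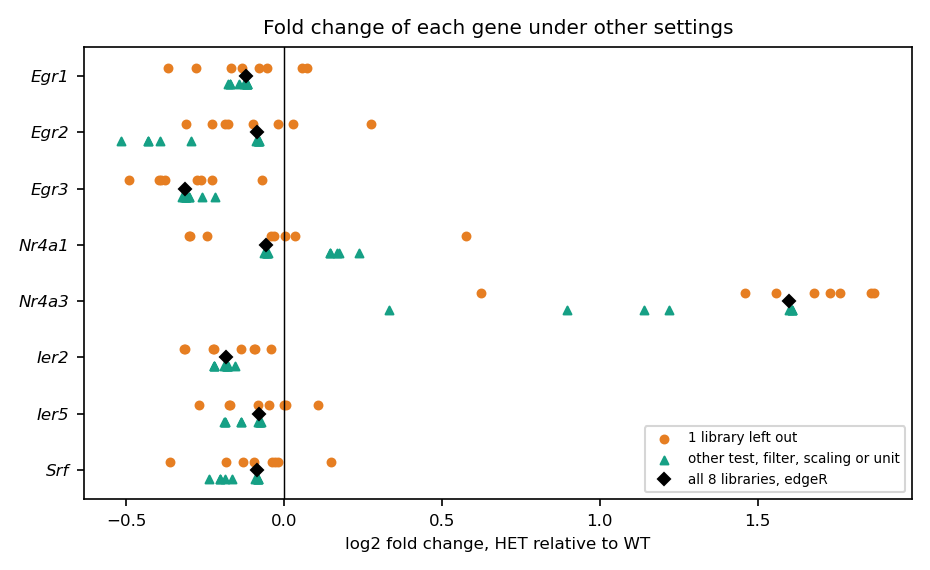
Log2 fold change of HET relative to WT for each tested gene in the fit of all 8 libraries (black), with 1 library left out (orange) and under other tests, filters, scalings or units (green). Egr3 and Ier2 stay below 0 in all settings tried and Nr4a3 above 0, and Egr1, Egr2, Nr4a1, Ier5 and Srf lie on both sides.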

How the data were processed

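RNA of about 200 sorted B cells per library was amplified with an adapted SMART-Seq2 protocol, without molecular identifiers. The authors aligned reads to GRCm38 with Hisat2 2.2.1 and used HTSeq-count for read counts over genes. Annotation, strand setting and handling of multiply aligned reads were not given in the sources used here. The deposited count table holds raw read counts, and the deposited TPM table holds the same counts divided by 1 length per gene and scaled to a fixed total (within 0.001 for all 19438 genes checked).

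Counts were analysed with edgeR 4.0.16 in R 4.3.3 (filterByExpr, 12744 of 24259 symbols, TMM, robust quasi-likelihood F-test, a model with group alone). P-values were adjusted by Benjamini-Hochberg, with calls at 0.05. A standard error is the fold change over the square root of F, and 95% intervals use the fitted degrees of freedom. The test was checked on simulated data. Log2 ratios to Fos used an offset of 0.5 counts. Intervals and limits on counts cover counting error only. Positions came from GENCODE M21 and promoters from RefSeq (GRCm38.p6).

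The 9 genes and the gene lists were chosen with earlier results of these data known. All 9 were described, and in the lists of early genes, partners and signaling routes the genes past the threshold were named, or otherwise the 3 with the lowest p. Marker and heat shock lists were given by counts and sums. Further genes were named with their values in view. The alternatives tried were DESeq2 1.42.0, limma-voom (limma 3.58.1), other scalings and filters, TPM on a log2 scale, the replicate number as a block, and leaving out each library.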

Additional observations from a re-analysis of the deposited data

Results flagged for a closer look

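A value was marked when the gap separating it from the next one filled over 0.829 of the range of its 4 libraries. This met 2 of the 18 groups of 4 values examined, where chance marks about 1 in 20.

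Nr4a3 was marked in HET replicate 3, at 10.2 CPM where the remaining HET values were 1.67 to 2.72 CPM (a gap of 0.877). Ier3 was marked in WT replicate 3, at 2.27 CPM (18 counts) where the remaining WT values were 0 (a gap of 1). Beside such zeros any count above 0 gives a gap of 1, so this mark reflects the detection limit. The low Egr2 value of HET replicate 4 came just under the limit, with a gap of 0.819.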

How the results depend on the processing

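None of the 8 tested genes passed an adjusted p of 0.05 in edgeR, DESeq2, limma-voom or limma-trend under any of the 18 alternatives, and the lowest adjusted p over these 142 fits was 0.476 (Nr4a3, DESeq2). At an unadjusted p under 0.05 the number was 0 or 1. The median log2 fold change of the 8 ranged from -0.25 to 0.071 when a library was left out and from -0.21 to -0.08 under the other alternatives. The number of genes below 0 was 6 or 7 under those, and 3 to 7 when a library was left out. The sign was lost for Egr1 (-0.37 to 0.071), Egr2 (-0.31 to 0.28), Nr4a1 (-0.30 to 0.58), Ier5 (-0.27 to 0.11) and Srf (-0.36 to 0.15) when single libraries were left out. Nr4a1 also turned positive with the replicate block (0.24), limma-voom (0.17), log2(TPM + 1) with and without a minimum mean TPM of 1 (0.15 and 0.15) and log2(TPM + 0.1) (0.17), and the cause was not tested. Among all genes, 3 were called in edgeR, 95 in DESeq2 (54 lower), 38 without a filter, 7 with a mean of at least 50 counts, 0 on either log2 TPM scale and with the TPM minimum, and 1 to 6 when a library was left out. It was 6 without WT replicate 1, 2 without WT replicate 2 or 4, and 1 without WT replicate 3 or any single HET library.

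The groups share replicate numbers in the labels, but same-numbered libraries did not deviate together (r from -0.051 to 0.013), and 1 of 4 HET libraries correlated best with its own number. With the replicate block 0 genes were called, and the log2 fold change of Nr4a3 was 1.14 (edgeR adjusted p = 0.81). Depth limits Ier3 and Nr4a3 most, with at most 18 and 68 counts per library.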
